A study of Mus musculus with 9 samples.

Results

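The genes described here encode the 6 enzymes that take threonine to glycine and then glycine to a one-carbon unit in mitochondria. They are Tdh and Gcat, which break threonine down, and Gldc, Amt, Gcsh and Dld, which form the glycine cleavage system. They were chosen by name from their known function, with earlier results of these data already known. All 6 are among the 20189 genes with a row in the count table and among the 20143 with at least 1 read. Transcript levels were measured by poly(A) RNA sequencing in 9 libraries from wild-type E14 mouse embryonic stem (ES) cells, 3 libraries from unstarved cells, 3 from cells starved of threonine (Thr) and 3 from cells starved of cysteine (Cys).

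In every group the cells carried the same unmodified genotype and were exposed to their medium for 3 h, and no other drug or genetic change is named in the labels. The cells had been kept on gelatin in medium with 15% fetal bovine serum, β-mercaptoethanol and 10 ng/ml leukemia inhibitory factor. The starvation medium held 5% dialysed serum, and unstarved cells received it with every amino acid present. The labels describe that recipe for arginine and leucine omission only, and the exact Thr and Cys recipes are not given in them. A single cell line was used, and nothing states that the 3 libraries of a group came from separate cultures, so the p-values measure the spread between these libraries, which may be technical.

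As background, mouse ES cells are known for a high activity of Tdh, threonine dehydrogenase, which oxidises Thr to 2-amino-3-ketobutyrate. Gcat then splits that product with coenzyme A into glycine and acetyl-CoA. The glycine cleavage system removes carbon dioxide from glycine through Gldc (the P protein, a decarboxylase), carries the remaining group on the lipoyl arm of Gcsh (the H protein), releases ammonia and loads the carbon onto tetrahydrofolate through Amt (the T protein), and reoxidises the lipoyl arm through Dld (the L protein), which serves the other lipoyl-dependent dehydrogenases of mitochondria as well.

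The total count per library was between 54294288 and 61459894 in unstarved, between 48763102 and 74962733 in Thr-starved and between 57700492 and 62657358 in Cys-starved cells. All 8 pluripotency markers examined (Pou5f1, Nanog, Sox2, Zfp42, Esrrb, Klf4, Tfcp2l1 and Dppa5a) averaged a counts-per-million value (CPM) of 5 or more, with a summed level of 3845 to 3882 CPM in unstarved, 4137 to 4226 CPM in Thr-starved and 3725 to 3744 CPM in Cys-starved libraries. The sum joins markers that moved in opposite directions without Thr, where Nanog went from 283 ± 6.3 to 212 ± 6.46 CPM (SD, n = 3) and Klf4 from 148 ± 2.43 to 267 ± 3.5 CPM. Of 12 markers of differentiated germ layers, 4 averaged 5 CPM or more. The summed level of the list was 100.1 to 101.7, 106.6 to 111.9 and 108.1 to 112.2 CPM in the same order. Its members also moved in opposite directions without Thr. T went from 3.39 ± 0.622 to 1.17 ± 0.184 CPM and Sox1 from 8.37 ± 0.542 to 15.4 ± 1.12 CPM. Of 8 fibroblast markers, 5 had any read and their sum was 15.1 to 15.4, 10.1 to 11.4 and 13.7 to 16.8 CPM. The part of these shifts in the results that follow was not tested, and in bulk RNA fewer cells of a type cannot be told apart from less RNA per cell.

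Tdh (ENSMUSG00000021953) lies on the minus strand of chromosome 14, from 63492347 to 63509092 in GRCm38, and has a near-identical copy elsewhere with which it could share reads. The copy is Gm13929 (ENSMUSG00000081037), a transcribed processed pseudogene on the plus strand of chromosome 2, from 112000180 to 112001304. Over 1125 aligned positions that cover the Tdh coding sequence the genes were 97.1% identical, with 28 differing bases and 5 gaps. The reads were 43 bases long, and 329 of the 1839 stretches of that length in the longest Tdh transcript (17.9%) also occur exactly in the copy. Of the 1083 such stretches in the copy, 329 (30.4%) occur exactly in that transcript. The 90-base stretch with the most differing bases inside 1 coding exon is shown to let the distance between the sequences be seen. It lies in Tdh exon 8 at chr14:63493791-63493880 on the minus strand and its counterpart at chr2:112001026-112001115 on the plus strand, both from GRCm38 and written 5′ to 3′, with the 5 bases that differ in capitals.
Tdh: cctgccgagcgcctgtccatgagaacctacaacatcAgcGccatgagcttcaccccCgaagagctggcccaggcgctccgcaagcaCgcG
Gm13929: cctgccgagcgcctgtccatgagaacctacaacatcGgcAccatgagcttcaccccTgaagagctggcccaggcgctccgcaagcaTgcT

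Tdh fell in both starvations, further without Thr than without Cys. It was at 358, 361 and 351 CPM in the unstarved libraries, at 224, 228 and 230 CPM in the Thr-starved libraries and at 301, 303 and 297 CPM in the Cys-starved libraries. The 3 groups did not overlap, with every Thr-starved library lowest and every Cys-starved library in between. Under Thr starvation the level fell by 36.3%, which is -0.65 as log2 fold change (SE 0.022, adjusted p = 4.7e-17, edgeR). Under Cys starvation it fell by 15.7%, which is -0.25 as log2 fold change (SE 0.022, adjusted p = 7.2e-09). The difference between the starvations was tested directly, and Tdh was lower in Thr-starved than in Cys-starved cells with a value of -0.40 on the log2 scale (SE 0.022, adjusted p = 2.6e-13).

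The copy moved with Tdh. Gm13929 averaged 26.7 ± 0.753 CPM (SD, n = 3) in unstarved, 16.6 ± 0.44 CPM in Thr-starved and 23.0 ± 0.498 CPM in Cys-starved cells. Its log2 fold change was -0.69 under Thr starvation (adjusted p = 9.1e-12) and -0.22 under Cys starvation (adjusted p = 0.00042). For every read on the copy there were 13.1 to 13.6 reads on Tdh in unstarved, 13.3 to 14.2 in Thr-starved and 12.8 to 13.3 in Cys-starved libraries, so how far Gm13929 is transcribed apart from Tdh remains uncertain in these counts. With the counts of both genes summed, an alternative added after the data were seen, the log2 fold changes were -0.65 and -0.24, close to those of Tdh alone. An antisense gene that shares 66 exon bases with Tdh, Gm17232, held 25 to 58 counts per library, against 10876 or more for Tdh.

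Gcat did not pass the test in any comparison. Its gene (ENSMUSG00000006378) lies on the plus strand of chromosome 15, from 79030874 to 79038353. The level was 9.13, 9.17 and 8.79 CPM in the unstarved libraries, 9.04, 7.34 and 7.98 CPM in the Thr-starved libraries and 8.48, 8.44 and 8.65 CPM in the Cys-starved libraries. The first Thr-starved library sat within the unstarved range and the other two lay below it. The log2 fold change was -0.16 under Thr starvation (95% confidence interval -0.31 to 0.0030, adjusted p = 0.082) and -0.084 under Cys starvation (-0.24 to 0.071, adjusted p = 0.42). Without Thr-starved replicate 1 the Thr value was -0.23 with an adjusted p of 0.016, and without Thr-starved replicate 2 it was -0.094 with an adjusted p of 0.32. A second annotated entry with the same symbol shares 1132 of the 2384 exon bases on the same strand and has no row in the count table. Whether the annotation used for counting held it is not known. If it did, reads that fall on both could be lost, which makes the level of Gcat uncertain.

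Among the genes of the glycine cleavage system, Gldc, the decarboxylase, fell under Thr starvation and did not pass the test under Cys starvation, and the difference between the starvations passed its own test. Gldc (ENSMUSG00000024827) spans chromosome 19 from 30098447 to 30175429 on the minus strand. It was at 99.1, 104 and 97.4 CPM in unstarved, at 83.5, 82.3 and 81.5 CPM in Thr-starved and at 99.5, 95.8 and 99.0 CPM in Cys-starved libraries. All 3 Thr-starved libraries lay below the other 6, which overlapped. The log2 fold change was -0.28 under Thr starvation (SE 0.030, adjusted p = 2.3e-08) and -0.25 for Thr-starved against Cys-starved cells (SE 0.030, adjusted p = 1.6e-07). Under Cys starvation it was -0.032 (95% confidence interval -0.094 to 0.030, adjusted p = 0.44).

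Gcsh, which holds the lipoyl arm, fell in both starvations. Its gene (ENSMUSG00000034424) is on the minus strand of chromosome 8, from 116981810 to 116993537. The unstarved libraries stood at 159, 161 and 153 CPM, the Thr-starved libraries at 125, 119 and 126 CPM and the Cys-starved libraries at 143, 145 and 149 CPM. The groups did not overlap, and their order was that of Tdh. The log2 fold change was -0.36 under Thr starvation (SE 0.029, adjusted p = 2.6e-10), -0.12 under Cys starvation (SE 0.029, adjusted p = 0.0026) and -0.24 between the starvations (adjusted p = 1.8e-07). Parts of the transcript resemble other genes. The longest match was to Gm37201, over 523 aligned positions with gaps included, at 91.4% identity. It covered bases 113 to 617 of 1443. Cysltr2 matched over 353 aligned positions at 93.2% identity. Cysltr2 was at 1.72 CPM or less and Gm37201 at 0.245 CPM or less in every library.

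Amt rose under Thr starvation, opposite to Gldc and Gcsh. Its gene (ENSMUSG00000032607) lies on the plus strand of chromosome 9, from 108296853 to 108302302. It was at 46.6, 44.9 and 43.6 CPM in unstarved, at 58.8, 61.4 and 63.2 CPM in Thr-starved and at 44.0, 47.0 and 44.9 CPM in Cys-starved libraries. The 3 Thr-starved libraries were above all the others, and the unstarved and Cys-starved libraries overlapped. The rise was 35.9%, which is 0.44 as log2 fold change (SE 0.038, adjusted p = 5.7e-10), and the direct comparison with Cys-starved cells gave 0.43 (SE 0.038, adjusted p = 8.3e-10). Under Cys starvation the log2 fold change was 0.0090 (95% confidence interval -0.071 to 0.088, adjusted p = 0.89), and its sign turned without unstarved replicate 3 (-0.013), without Cys-starved replicate 2 (-0.019) and with the deposited size factors (-0.033). A repeat at bases 1466 to 1633 of the longest Amt transcript matches 483 other genes, so reads from it may not have been counted uniquely.

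Dld changed least of the genes that passed a test. Its gene (ENSMUSG00000020664) is on the minus strand of chromosome 12, from 31331277 to 31351453. The level was 123, 123 and 122 CPM in unstarved, 129.7, 132 and 129.7 CPM in Thr-starved and 130.0, 130.4 and 125 CPM in Cys-starved libraries. Both sets of starved libraries lay above the unstarved libraries and overlapped each other. The rise under Thr starvation was 6.31%, which is 0.088 as log2 fold change (SE 0.026, adjusted p = 0.0051). Under Cys starvation the log2 fold change was 0.065 (95% confidence interval 0.011 to 0.12, adjusted p = 0.054), and without Cys-starved replicate 3 it was 0.086 with an adjusted p of 0.019. Between the starvations it was 0.023 (adjusted p = 0.46), and with the deposited size factors it became 0.068 with an adjusted p of 0.030.

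**Figure D1:**
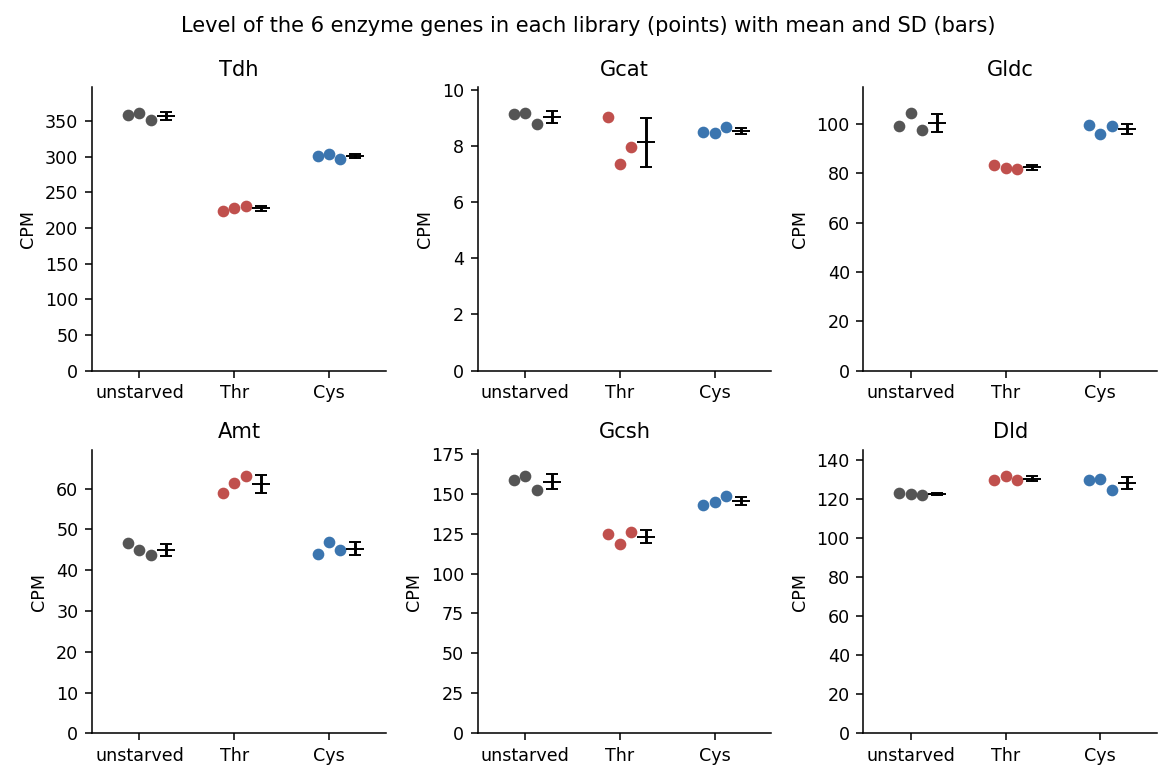
Level of Tdh, Gcat, Gldc, Amt, Gcsh and Dld in CPM (counts-per-million values, vertical axis from 0) in each of the 3 libraries per group (points: grey unstarved, red Thr-starved, blue Cys-starved), with the mean and SD beside them in black. The Thr-starved points of Tdh lie between 224 and 230 CPM and those of Amt between 58.8 and 63.2 CPM, below and above all other libraries of these genes.

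Counted together, 5 of the 6 genes passed the test under Thr starvation, 2 higher (Amt and Dld) and 3 lower (Tdh, Gldc and Gcsh). A gene was called at an adjusted p of 0.05 or less. In the same fit 63.0% of all genes tested were called, 31.1% higher and 31.9% lower, and the libraries of the groups did not overlap for 66.5%, against 5 of the 6 enzyme genes. The median log2 fold change of the 6 was -0.22, beside -0.016 over all genes tested. The 6 values spread from -0.65 to 0.44. Among the 11410 genes that averaged 5 CPM or more, the absolute change of Tdh was larger than that of 79.7% and that of Amt larger than that of 64.3%, whereas Gldc stood at 47.0% and Dld at 16.8%.

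Under Cys starvation 2 of the 6 genes were called, both lower (Tdh and Gcsh). Of all genes tested 36.3% were called, 17.5% higher and 18.8% lower. The libraries did not overlap for 4 of the 6 (Tdh, Gcat, Gcsh and Dld) and for 46.4% of all genes. The split of the calls over all genes depended on the scaling, with 48.2% of them higher as computed here and 36.8% higher with the deposited size factors. Tdh stood out within the group by size, with an absolute change above that of 78.9% of the genes at 5 CPM or more, while Amt stood at 3.75%. The median of the 6 log2 fold changes was -0.058, beside 0.0068 over all genes tested.

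Set directly against each other, the starvations differed in 4 of the 6 genes, with Amt higher and Tdh, Gldc and Gcsh lower in Thr-starved cells. The background was 62.0% of all genes called, 30.4% higher and 31.6% lower, and 65.8% with libraries that did not overlap, against 4 of the 6 enzyme genes. The median log2 fold change was -0.16 for the 6, beside -0.018 for all genes tested. Both starvations were compared with the same 3 unstarved libraries, so their values stand side by side here and only the direct comparison tests a difference between them.

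**Figure D2:**
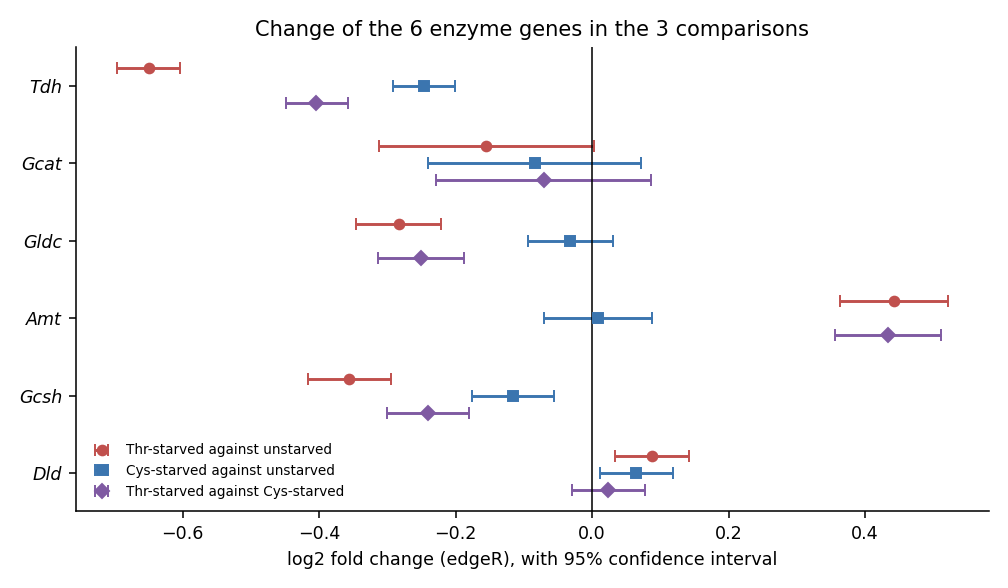
Log2 fold change (horizontal axis) of the 6 enzyme genes, with 95% confidence intervals, for Thr-starved against unstarved (red circles), Cys-starved against unstarved (blue squares) and Thr-starved against Cys-starved cells (violet diamonds). Tdh is lowest at -0.65 and Amt highest at 0.44, both under Thr starvation, and all 3 intervals of Gcat include 0.

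Levels between genes can be compared only per length, as CPM per kb of annotated exon. On that scale the unstarved cells had Tdh at 136 ± 1.92 (SD, n = 3), Gcsh at 99.8 ± 2.85, Dld at 33.3 ± 0.115, Amt at 18.5 ± 0.614, Gldc at 16.5 ± 0.598 and Gcat at 3.79 ± 0.0865 CPM per kb. Every neighbouring pair in that order was separated by more than the SDs, the nearest being Amt and Gldc. The SDs do not cover the choice of length, on which the order of Amt and Gldc depends. The joined exons were 2437 bases for Amt and 6091 for Gldc, against 2082 and 3767 in the longest transcript. Gcat remained lowest, at 7.21 ± 0.165 CPM per kb, when only the 1252 exon bases that no other annotated gene shares were taken as its length, which assigns all its reads to them and so gives an upper value. By CPM among all tested genes, Tdh was at the 97.6th percentile and Gcat at the 50.7th in unstarved cells.

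The first gene of Thr breakdown stood far above the next in level. The ratio of Tdh to Gcat in CPM per kb was 36.0 ± 0.35 (SD, n = 3) in unstarved, 25.7 ± 2.93 in Thr-starved and 32.2 ± 0.767 in Cys-starved cells. These ratios are descriptions with no test, and they carry the uncertainty of the Gcat counts. Per kb of exon bases that no other annotated gene shares, the ratios were 19.4 ± 0.188, 13.9 ± 1.58 and 17.3 ± 0.413 in the same order.

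Within the glycine cleavage system the share of each gene in the summed level differed between the groups. The summed level of its 4 genes was 168 ± 3.84 CPM per kb (SD, n = 3) in unstarved, 152 ± 2.38 in Thr-starved and 162 ± 1.15 in Cys-starved cells. Of that sum Amt made up 11.0% ± 0.268 in unstarved cells, 16.5% ± 0.535 in Thr-starved cells and 11.5% ± 0.359 in Cys-starved cells. Gcsh made up most of it, with 59.4% ± 0.354, 51.3% ± 0.95 and 57.0% ± 0.763 in the same order. The share of Dld was 19.8% ± 0.404, 23.3% ± 0.588 and 21.6% ± 0.658, and that of Gldc 9.8% ± 0.209, 8.91% ± 0.207 and 9.97% ± 0.241. None of the 4 shares overlapped between Thr-starved and unstarved libraries. Those of Gcsh and Dld did not overlap between Cys-starved and unstarved libraries either. By level, the libraries did not overlap for 66.5% of all genes without Thr and 46.4% without Cys. Shares of this kind were not computed for other genes. Because the shares sum to a whole, they are not independent of each other. They also rest on the joined exon length of each gene, and another length would change them.

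**Figure D3:**
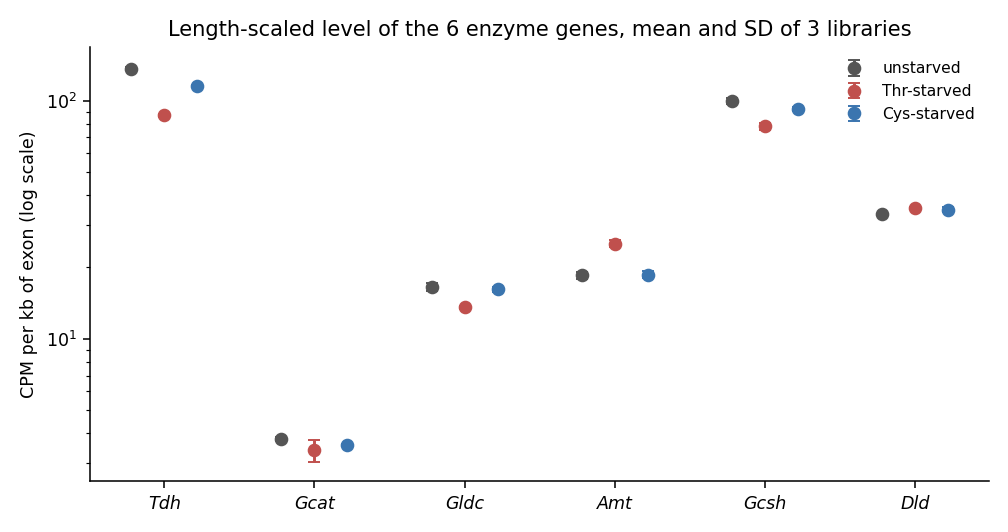
Mean level of the 6 enzyme genes in CPM per kb of annotated exon (vertical axis, log scale) in unstarved (grey), Thr-starved (red) and Cys-starved cells (blue), with SD of 3 libraries as error bars, most of them smaller than the points. Tdh is at 136, 86.9 and 115 CPM per kb and Gcat at 3.79, 3.41 and 3.58 in the 3 groups.

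The RefSeq promoter windows, from 250 bases before to 50 bases after a start of transcription, were matched by symbol for 5 of the 6 genes, all but Tdh. They were searched on both strands for TGATGNAA (the core of the element bound by C/EBP-ATF dimers such as those formed by Atf4), TGACGTCA (the cyclic AMP response element) and CACGTG (the E-box), which do not contain one another. The single match was an E-box in the window of Gcat that begins at base 3, counting the start itself as the first base. Of 32851 RefSeq windows 3.97% held the first motif, 1.79% the second and 7.15% the E-box. The 250 bases before the RefSeq start are shown for Amt and Gcsh. These genes moved in opposite directions under Thr starvation, and their windows held none of the 3 motifs. Both RefSeq starts lie inside the gene spans given above, so the last bases of each stretch fall within the annotated gene. They are taken from RefSeq on GRCm38.p6 at chr9:108296655-108296904 (plus strand) and chr8:116993499-116993748 (minus strand), 5′ to 3′, with no base in capitals. The Amt stretch has a GC content of 53.6% with 3 CpG dinucleotides, and the Gcsh stretch has 64.4% with 18.
Amt: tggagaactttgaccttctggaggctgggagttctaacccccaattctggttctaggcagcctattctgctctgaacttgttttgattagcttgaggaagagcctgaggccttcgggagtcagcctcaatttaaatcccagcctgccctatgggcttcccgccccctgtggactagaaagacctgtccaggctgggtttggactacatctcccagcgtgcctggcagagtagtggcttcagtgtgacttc
Gcsh: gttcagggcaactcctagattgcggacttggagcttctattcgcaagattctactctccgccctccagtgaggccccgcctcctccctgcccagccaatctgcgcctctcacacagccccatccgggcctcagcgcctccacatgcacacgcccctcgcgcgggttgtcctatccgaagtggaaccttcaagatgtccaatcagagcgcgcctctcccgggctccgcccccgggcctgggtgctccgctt

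The genes whose levels followed each enzyme gene most closely were ranked by Pearson's r of log2(CPM + 0.5) over the 9 libraries among 11402 genes at 5 CPM or more. These values are descriptions, since all genes share the libraries and the 3 groups. For Tdh they were the glycolytic genes Aldoa (r = 0.9991) and Pgam1 (0.9990) and the gene Ubfd1 (0.9989). Aldoa fell more steeply than Tdh, with log2 fold changes of -1.13 under Thr starvation and -0.43 under Cys starvation, and Pgam1 gave -0.60 and -0.22. For Gldc they were Flna (0.9940), Trmt11 (0.9927) and Lipa (0.9910), and for Gcsh they were Unc13b and Fam160b1 (0.9943 each) and Gm4600 (0.9911). For Amt they were Nudcd2 (0.9966), Nbn (0.9927) and Btf3l4 (0.9912), whose log2 fold changes under Thr starvation lay between 0.38 and 0.48. The likeness was weaker for Dld, with Tm9sf4 (0.9703), Zfp563 (0.9630) and Tfcp2 (0.9596), and weakest for Gcat, led by Gm8420 (0.9007), Lix1l (0.8938) and Rps2-ps11 (0.8926). Among the 6 themselves, Tdh and Gcsh had the highest r at 0.976 and Gldc and Amt the lowest at -0.968.

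Other genes, in 5 lists, set the enzymes in their pathway. Of 10 genes of the other lipoyl-dependent dehydrogenase complexes, which use Dld, 7 rose and 3 fell under Thr starvation, and 2 rose and 3 fell under Cys starvation. Their median log2 fold changes were 0.25 and 0.020. Over all genes tested 31.1% were called higher and 31.9% lower without Thr, and 17.5% higher and 18.8% lower without Cys, and the counts of all 5 lists stand beside these shares. Ogdh, the first enzyme of the 2-oxoglutarate dehydrogenase complex, fell from 147 ± 4.02 to 85.8 ± 1.02 CPM without Thr (log2 fold change -0.78, adjusted p = 9.4e-17), while Dlst, the lipoyl-bearing core of that same complex, rose from 119 ± 1.54 to 165 ± 3.8 CPM (0.48, adjusted p = 1.9e-13). Pdhb, a subunit of pyruvate dehydrogenase, rose by 0.52 (adjusted p = 4.1e-15) and Dbt, the core of the branched-chain complex, by 0.70 (adjusted p = 1.8e-13). Under Cys starvation Dbt rose by 0.44 (adjusted p = 5.3e-09) and Bckdhb of the same complex fell, with a log2 fold change of -0.30 (adjusted p = 8.1e-07).

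The genes that make and attach the lipoyl group of Gcsh moved in both directions. Of 9 listed 8 were tested, and 2 rose and 3 fell without Thr (median 0.060), while 3 rose and 0 fell without Cys (median 0.070). Lias, the lipoyl synthase, rose by 0.13 (adjusted p = 0.0021) and 0.22 (adjusted p = 2.3e-05) in the respective starvations. Ndufab1, the mitochondrial acyl carrier protein, rose by 0.32 without Thr (adjusted p = 2.2e-08). Lipt2, which transfers octanoate to the H protein, and Mcat, of mitochondrial fatty acid synthesis, both fell without Thr, with log2 values of -0.34 (adjusted p = 0.0020) and -0.22 (adjusted p = 0.0011). Oxsm, of the same synthesis, rose by 0.34 without Cys (adjusted p = 7.4e-04).

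Of 24 glycine and one-carbon genes 23 were tested. Under Thr starvation 11 rose and 7 fell (median 0.080), and under Cys starvation 11 rose and 4 fell (median 0.15). Mthfd2 and Aldh1l2, folate enzymes of mitochondria, rose in both starvations, Mthfd2 from 301 ± 5.64 CPM to 530 ± 14.1 without Thr (0.81, adjusted p = 1.7e-18) and to 489 ± 6.11 without Cys (0.70, adjusted p = 3.5e-16), and Aldh1l2 from 7.04 ± 0.587 to 13.4 ± 0.349 without Thr (0.93, adjusted p = 1.3e-10) and to 18.3 ± 1.31 CPM without Cys (1.38, adjusted p = 8.0e-13). Slc6a9, a glycine transporter, rose by 0.28 without Thr (adjusted p = 7.6e-04) and by 1.19 without Cys (adjusted p = 8.8e-13). Slc6a9 was lower in Thr-starved than in Cys-starved cells, with a log2 fold change of -0.91 (adjusted p = 6.0e-12).

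Of 8 other genes, listed by action on threonine or by likeness to threonine synthase, 6 were tested. Without Thr 3 rose and 2 fell (median 0.10), while 1 rose and 1 fell without Cys (median -0.020). Tars, the cytosolic threonyl-tRNA synthetase, rose by 0.21 (adjusted p = 1.6e-08) and its relative Tarsl2 fell from 10.6 ± 0.436 to 6.94 ± 0.0524 CPM without Thr (-0.60, adjusted p = 1.6e-07). Thnsl1, a threonine synthase-like gene, rose by 0.18 without Thr (adjusted p = 0.0052) and by 0.36 without Cys (adjusted p = 8.1e-06). Tars2, the mitochondrial synthetase, fell without Cys (-0.10, adjusted p = 0.016).

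Of 12 genes of neutral amino acid transport, for small and large amino acids, 10 were tested. Without Thr 4 rose and 2 fell (median 0.090), and without Cys 6 rose and 1 fell (median 0.17). Slc1a4, a carrier of alanine, serine, cysteine and threonine, rose by 0.90 (adjusted p = 1.6e-16) and 0.96 (adjusted p = 7.0e-16) in the respective starvations. Slc3a2, the heavy chain shared by several exchangers, rose by 0.73 without Thr (adjusted p = 1.9e-18) and by 0.23 without Cys (adjusted p = 7.2e-09). Its partner Slc7a5 rose by 0.17 (adjusted p = 1.8e-07) and 0.30 (adjusted p = 2.1e-10). Slc38a2 and Slc38a4, sodium-coupled carriers, both fell without Thr, with log2 values of -0.19 (adjusted p = 1.0e-08) and -0.29 (adjusted p = 3.2e-10). Without Cys Slc38a4 fell as well (-0.22, adjusted p = 1.4e-07). Slc38a2 rose there by 0.06 (adjusted p = 0.018), a call lost with the deposited size factors.

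In the direct comparison of Thr-starved with Cys-starved cells, 8 lipoyl complex genes were higher and 2 lower. For lipoate genes 2 were higher and 5 lower, and for glycine and one-carbon genes 8 higher and 12 lower. For the list of other threonine genes 3 were higher and 3 lower, and for neutral amino acid transport genes 2 higher and 5 lower. Over all 5 lists 44, 32 and 50 of the 57 genes tested were called in the Thr, Cys and direct comparisons, beside 63.0%, 36.3% and 62.0% of all genes. The lists were not matched to all genes by level, and 11410 of the 20143 genes tested averaged 5 CPM or more. With the deposited size factors 0, 2 and 4 of these calls were lost, among them Cbr4 and Slc38a2 under Cys starvation, and 1, 4 and 0 were gained.

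**Figure D4:**
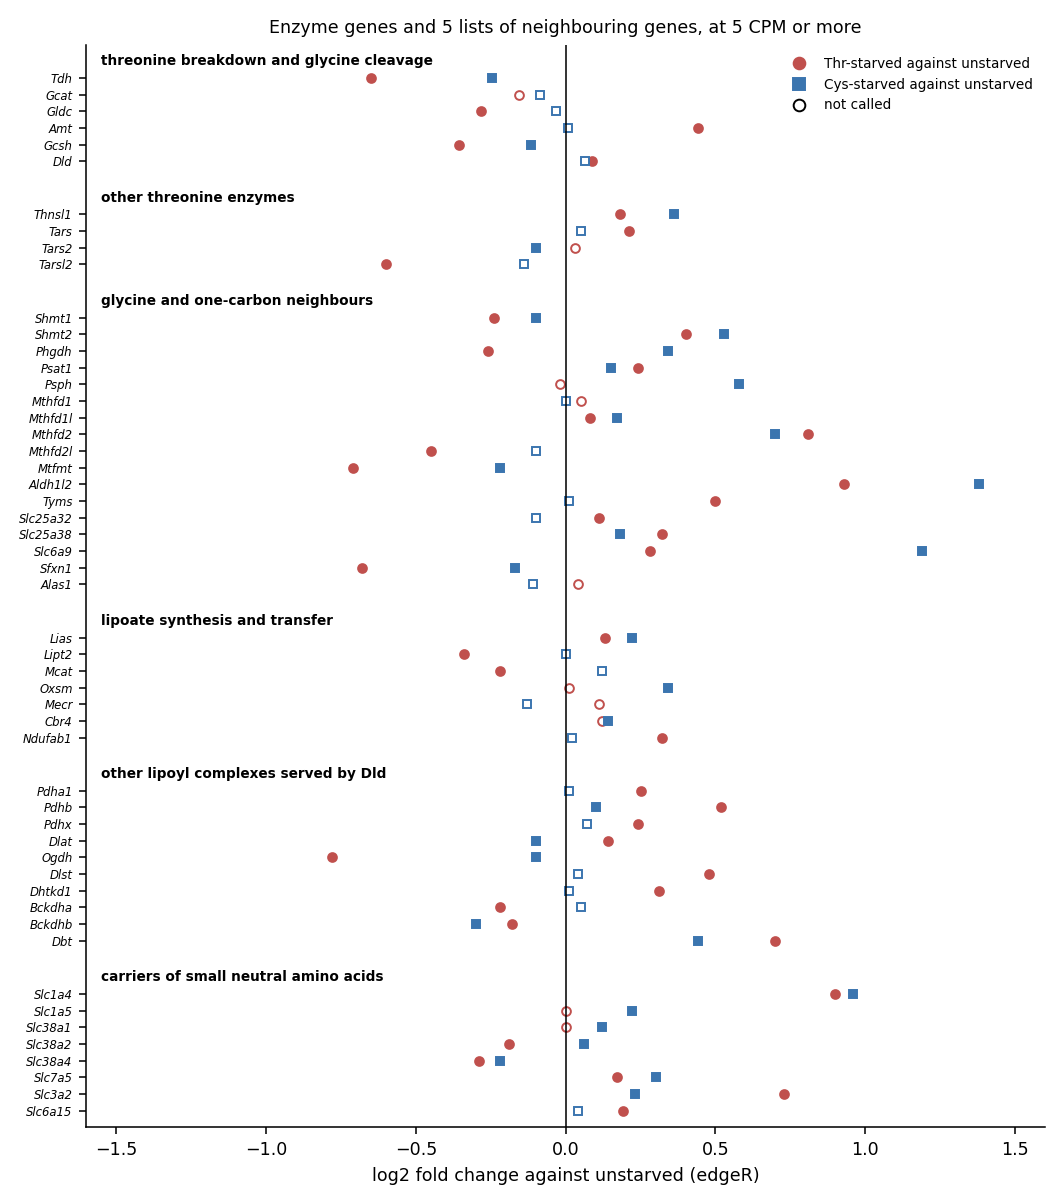
Log2 fold change against unstarved cells (horizontal axis) of the 6 enzyme genes and of the genes in 5 neighbouring lists that averaged 5 CPM or more (rows, without the genes not reported here), for Thr-starved (red circles) and Cys-starved cells (blue squares), with open symbols for genes not called. Aldh1l2 lies farthest to the right, at 1.38 in Cys-starved cells, and Ogdh farthest to the left, at -0.78 in Thr-starved cells.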

How the data were processed

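Per the submitters' processing notes, the authors aligned reads to GRCm38 with STAR 2.7.4a, counted them per gene with HTSeq and normalised them with DESeq2 (listed as DESeq 1.30.1, R 4.0.3). How the counting treated strand and overlapping genes is not given in the sources used here. The deposited tables hold raw counts per gene and a signal table of those counts divided by size factors, from which only the size factors were used here. Of 28226 counts between 1 and 20, 67.8% were even, as would occur if both mates of a read pair were counted, so a fragment may count as 2 reads. Genes with at least 1 count over the 9 libraries were tested in 1 fit of all libraries with the quasi-likelihood F test of edgeR 4.0.16 (R 4.3.3) after TMM normalisation, with group as the only term and Benjamini-Hochberg adjustment over all tested genes. Levels are CPM on TMM-scaled library sizes, and CPM per kb uses the union of exons in GENCODE M21 (GRCm38). Copies of 100 bases or more at 90% identity or more were searched with BLAST 2.17.0. The chi-square per gene between libraries of a group was 2.72 to 10.0, where 1 would fit independent reads and 2 fragments counted as pairs, and no library was merged. The script was tested on simulated data. DESeq2 1.42.0, other scalings, filters, sample sets and left-out libraries were alternatives. The genes and lists were chosen with earlier results of these data known. From each list the genes named were those called with the largest absolute change at 5 CPM or more, at most 4 for Thr and 2 for Cys starvation, and for each enzyme gene the 3 most alike. Some genes that this rule names are not reported here, though the counts over their list include them.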

Additional observations from a re-analysis of the deposited data

How the results depend on the processing

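Over 18 alternatives, the number of enzyme genes called was 5 or 6 under Thr starvation, 2 or 3 under Cys starvation and 4 or 5 in the direct comparison. They were RLE and deposited size factors, DESeq2, 2 filters on low counts, only the groups compared, an adjusted p of 0.01, the replicate block, each library left out and, added after the data were seen, summed counts of Tdh and its copy. The log2 fold changes of Tdh, Gldc, Gcsh and Amt under Thr starvation kept their direction and call in all that could change them, with ranges of -0.66 to -0.63, -0.30 to -0.25, -0.38 to -0.33 and 0.42 to 0.47. Amt under Cys starvation, which was not called, turned to -0.033 with the deposited size factors and ranged from -0.019 to 0.031 with a library left out. Dld under Cys starvation passed the threshold with at least 10 counts in every library (0.072, adjusted p = 0.023) and with only the groups compared (0.069, adjusted p = 0.037). The causes were not tested. Replicate numbers did not pair the libraries: deviations of same-numbered libraries correlated between -0.073 and 0.11 for Thr-starved and unstarved cells, 2 of 6 libraries correlated best with their own number there, and with the replicate block 5, 2 and 4 enzyme genes were called in the Thr, Cys and direct comparisons. At this depth Gcat, at 9.03 CPM, had the widest interval of the 6.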

Other observations

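Some neighbouring genes at low levels changed more than most of the enzyme genes, and they are named here after their values were seen. Lipt1, a lipoyl transferase, was at 6.27, 5.81 and 6.25 CPM in unstarved, at 2.25, 2.52 and 2.84 CPM in Thr-starved and at 6.14, 4.92 and 6.24 CPM in Cys-starved libraries. Its Thr-starved libraries lay below all others, with a value of -1.25 on the log2 scale (SE 0.113, adjusted p = 1.5e-09), while under Cys starvation it was -0.080 (adjusted p = 0.56). Gatm, which uses glycine in creatine synthesis, had a log2 fold change of -1.59 without Thr (adjusted p = 1.5e-07) from 2.05 ± 0.182 CPM (SD, n = 3). It fell without Cys as well, by less (-0.48, adjusted p = 0.028). Tha1, a threonine aldolase, which also yields glycine from Thr, rose from 0.991 ± 0.0708 to 2.07 ± 0.0552 CPM without Thr (1.06, adjusted p = 4.1e-06).

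The serine synthesis gene Phgdh went in opposite directions in the starvations. It was at 232, 241 and 235 CPM in unstarved, at 195, 194 and 202 CPM in Thr-starved and at 302, 296 and 299 CPM in Cys-starved libraries, and the direct comparison gave -0.60 on the log2 scale (SE 0.024, adjusted p = 1.2e-15). Psph, of the same pathway, rose by 0.58 without Cys (adjusted p = 1.8e-11), and without Thr its log2 fold change was -0.020 (adjusted p = 0.67). Psat1, also of that pathway, rose in both starvations, by 0.24 without Thr (adjusted p = 1.7e-10) and 0.15 without Cys (adjusted p = 1.3e-06). Shmt2, the mitochondrial serine hydroxymethyltransferase that makes glycine, rose by 0.40 without Thr (adjusted p = 2.7e-13) and 0.53 without Cys (adjusted p = 2.1e-14).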
